A study of Mus musculus with 4 samples.

Results

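The chemokine receptor genes Ccr1, Ccr2, Ccrl2, Cx3cr1, Ccr7, Cxcr2 and Cxcr4, 7 in all, were examined in macrophages labelled as Pparg knockouts (KO) and in macrophages labelled as Pparg wild type (WT). The members were all probe sets with values that the platform annotation assigns to these genes, which gave 1 probe set a gene and 7 of the 10649 probe sets with values. Of the 7, 4 passed the filter on low signals, a mean above about 111 units (Ccr1, Ccrl2, Cx3cr1 and Cxcr4) and 3 did not (Ccr2, Ccr7 and Cxcr2). The cells were peritoneal macrophages of mice on a mixed 129/SV and C57BL/6 background, drawn into the cavity by thioglycollate, a sterile irritant, and lavaged 3 days after its injection. They were plated, washed and kept for 24 h in medium with 0.5% serum, with no ligand or stimulus. The 2 KO arrays and the 2 WT arrays were 1-colour Affymetrix arrays. Neither the deleted part of Pparg nor the cells in which it was deleted is described in the labels, and no label says that the 2 arrays of a genotype stem from different mice or cultures. The second array of each genotype is marked as a duplicate, so the p-values here reflect array-to-array spread that may be technical.

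Chemokine receptors are G protein-coupled receptors of the cell surface that steer leukocytes along gradients of small secreted proteins, the chemokines. Most signal through inhibitory G proteins and are then silenced by receptor kinases and arrestins. In the monocyte and macrophage lineage, Ccr2 is best known for releasing inflammatory monocytes from the marrow, Ccr1 and Cx3cr1 for recruitment and survival in tissue, and Cxcr4 for retention near cells that make Cxcl12. Pparg encodes PPARγ, a nuclear receptor activated by lipids.

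The array medians ran from 137 to 142 intensity units. Background on each array was read from 12 control probe sets that face the strand opposite to the labelled one, with medians from 104 to 116 and highest values from 144 to 157. The 1 Pparg probe set read 43.0 and 40.6 in KO, against 61.1 and 73.1 in WT (log2 fold change -0.52, SE 0.11, limma adjusted p = 0.00012 without a signal filter). A log2 fold change is here the mean KO value minus the mean WT value after log2(signal + 16), and p-values were adjusted by the Benjamini-Hochberg method over all probe sets of the fit. All 4 of the Pparg signals lay below the control median and the probe set may lie outside the deleted part, so it is no firm check of the labels. The cells carried macrophage transcripts: of 9 macrophage markers, 8 exceeded the highest control on all 4 arrays, with Cd68 at 6210 and 6956 in KO, against 6355 and 6414 in WT. Of 11 neutrophil markers with values, 4 (Ly6g, S100a9, Mpo and Ltf) were below the control median on all 4 arrays and 3 (Csf3r, S100a8 and Camp) above the highest control on all 4. Of 9 T and NK cell markers with values, 6 were below the control median on all 4 arrays and 1 (Cd4) above the highest control on all 4. None of the tested T and NK cell (2), B cell (4) or mast cell and eosinophil markers (2) passed limma's test, or had an unadjusted p under 0.05. One macrophage marker passed the test: Mertk, a receptor for apoptotic cells, was lower in KO. It read 135 and 150.5 in KO, against 226 and 233 in WT (log2 fold change -0.63, limma adjusted p = 1.4e-06). Adgre1, another macrophage marker, read 1063 and 1213 in KO, against 1429 and 1421 in WT, and did not pass (log2 fold change -0.32, limma adjusted p = 0.46). By their means, 4 of the 9 were higher in KO and 5 lower (median log2 fold change -0.03, against -0.02 over all 5002 tested genes). Cd14 and Msr1 had higher means in KO, with log2 fold changes of 0.19 and 0.16, and did not pass. Of the 5002 genes, 1.06% were called higher in KO and 2.66% lower. At an unadjusted p under 0.05 by limma, 0 of the 9 were higher and 2 lower, beside 150 higher and 323 lower of the 5002. At an adjusted p under 0.05, 0 were higher and 2 lower after quantile normalization, against 0 and 1 in the main fit.

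**Figure D1:**
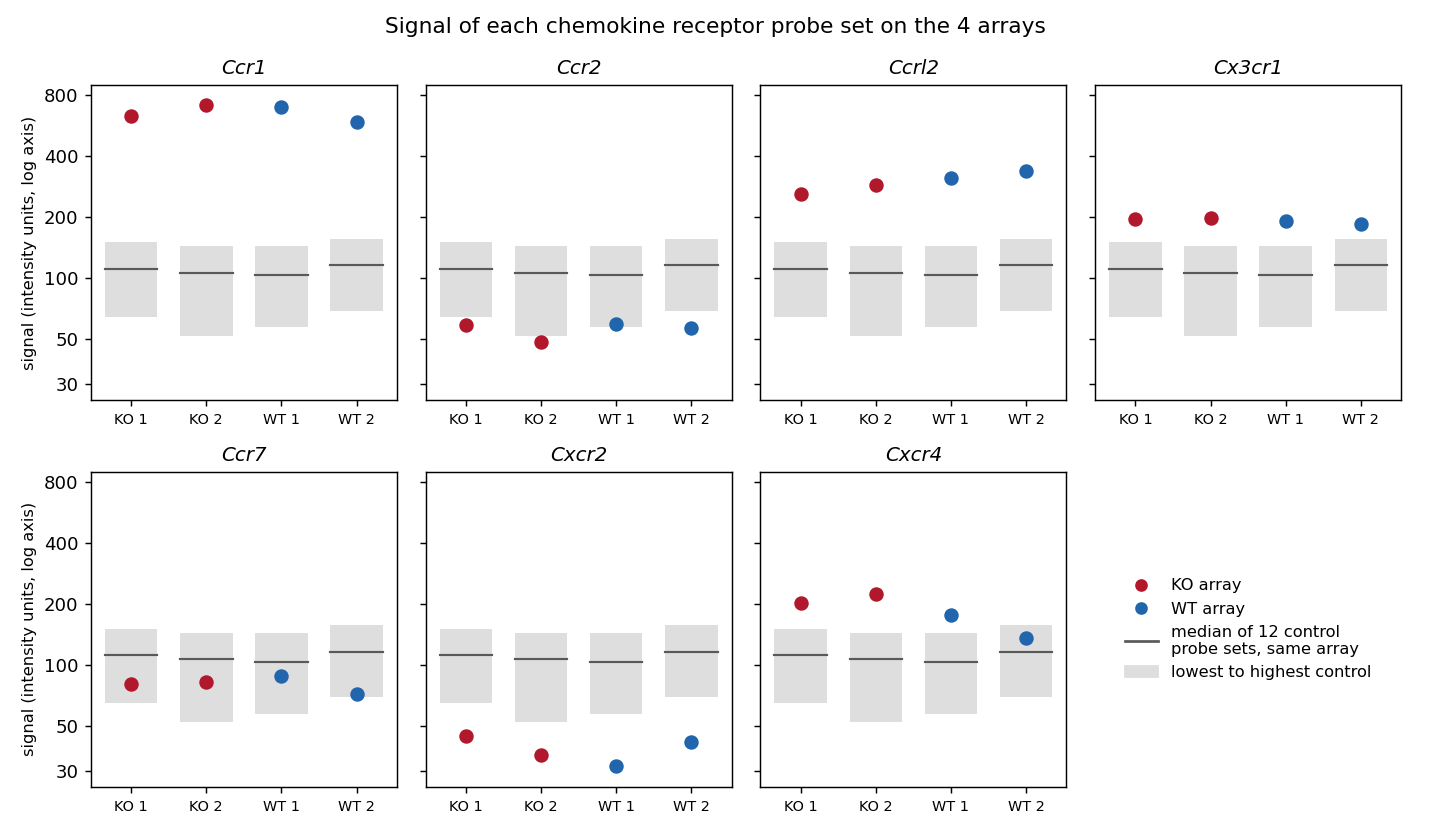
Signal of the 7 chemokine receptor probe sets on each array (intensity units, log axis), KO in red and WT in blue, 1 point an array; the grey band spans the lowest to the highest of 12 control probe sets of the same array and the line marks their median. Cxcr4 read 203 and 223 in KO, against 177 and 136 in WT, while Ccr2, Ccr7 and Cxcr2 lay below the control median on all 4 arrays.

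No receptor gene passed the test with a lower mean in KO macrophages, and 1 passed it with a higher mean. This was Cxcr4, which passed the test with a fold of 1.34, so that 1 of the 7 members was called, where 1.02% of the 6389 tested probe sets were called higher in KO and 2.54% lower (65 and 162 probe sets, or 170 and 249 after quantile normalization). Without a signal filter, which lets all 7 members into 1 fit, Cxcr4 was again the 1 member past the threshold (adjusted p = 0.0184) and 3.11% of 10649 probe sets were called in either direction. At an unadjusted p under 0.05 in that fit, the count among the 7 was also 1, beside 1132 of all 10649 probe sets. The median log2 fold change over the 7 members was 0.06, against -0.03 over all probe sets in that fit, with 5 members higher and 2 lower by their means. Without the 3 members whose signals lay at background level (Ccr2, Ccr7 and Cxcr2), 3 were higher and 1 lower. Both KO arrays lay on the same side of both WT arrays for 3 members (Cxcr4, Cx3cr1 and Ccrl2), which is read beside 35.2% of all probe sets, or 32.4% of those tested. In bulk RNA, a change in the share of cells that carry a receptor and a change in its transcript per cell cannot be told apart.

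Cxcr4, the receptor for Cxcl12, read 203 and 223 in KO, against 177 and 136 in WT. Both KO arrays were above both WT arrays, and WT replicate 2 was the lowest, within the range of the controls. The means were 213 ± 14.3 in KO and 156 ± 29.3 in WT (SD, n = 2 each), so that the genotypes differed by 56.4 units while the KO arrays differed by 20.2 and the WT arrays by 41.5. The log2 fold change was 0.42 (SE 0.11, 95% interval 0.20 to 0.63, limma adjusted p = 0.00718), a fold of 1.34 with an interval of 1.15 to 1.55.

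The Cxcr4 call rested on single arrays. With WT replicate 2 left out the value was 0.24 (adjusted p = 0.9999), and with KO replicate 2 left out it was 0.35 (adjusted p = 0.059). It stayed past the threshold without WT replicate 1 (0.59, adjusted p = 0.028) and without KO replicate 1 (0.48, adjusted p = 0.0026). With the probe set's own spread in place of the spread pooled over probe sets of like signal, adjusted p was 0.92 and unadjusted p was 0.15 (limma without moderation). In that fit 0 of 6389 probe sets passed and 388 had an unadjusted p under 0.05.

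**Figure D2:**
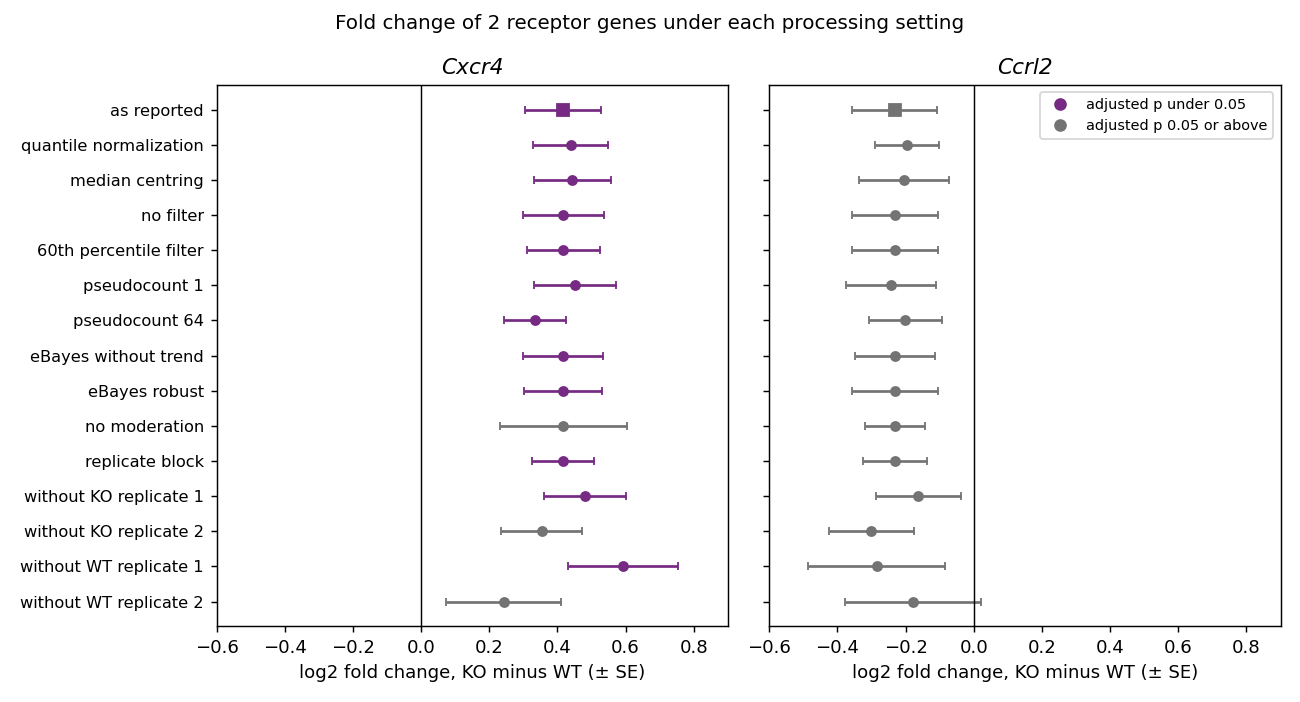
Log2 fold change (KO minus WT, ± SE) of Cxcr4 and Ccrl2 as reported (squares) and under each alternative setting (circles), purple where adjusted p was under 0.05. Cxcr4 was higher in KO under all 14 alternatives and past the threshold under 11, and Ccrl2 was lower under all 14 and past it under 0.

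The array profile most like that of Cxcr4 was that of Rgs2, a regulator of G protein signalling that shortens the activity of G protein alpha subunits. Likeness was the root mean square difference of the 4 log2 values after each probe set's mean was subtracted, and it was 0.014 for Rgs2. Antxr2, an anthrax toxin receptor gene, came next (0.029), followed by Col6a1, a collagen VI chain gene (0.047). With 4 arrays such likeness is easily reached, and 28 of the 5002 tested genes lay within 0.1 of Cxcr4. These values are a description.

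Markers of connective tissue cells also had higher means in KO, and 1 of them passed the test. Of 10 fibroblast and mesothelial markers, 9 had values and 5 passed the signal filter. All 5 of these had higher means in KO, beside 2114 of all 5002 tested genes (median log2 fold change 0.29, against -0.02 over all 5002). At an unadjusted p under 0.05 by limma, 4 of the 5 were higher and 0 lower, beside 150 higher and 323 lower of the 5002. The one past the threshold, Dcn, the proteoglycan decorin, read 945 and 1060 in KO, against 616 and 561 in WT (log2 fold change 0.75, SE 0.15, limma adjusted p = 6.3e-05). Dcn did not pass without WT replicate 1 (log2 fold change 0.82) or WT replicate 2 (0.69), though its log2 fold change stayed of like size. Quantile normalization called 3 of the 5 higher, and a fit with the replicate number as a block called 4. The summed signal of the 9 markers was 2575 and 2915 in KO, against 2069 and 2034.5 in WT, while the mesothelial markers Wt1, Msln and Krt19 lay below the control median on all 4 arrays. The remaining mesothelial marker, Upk3b, read 113.5 and 111 in KO, above the control median, against 103 and 108 in WT, below it. The part of these markers in the Cxcr4 result was not tested.

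Ccrl2, an atypical receptor that binds chemerin without signalling in the usual way, read 261 and 288 in KO, against 312 and 337.5 in WT. Both KO arrays were below both WT arrays, and all 4 exceeded the highest control. The means were 274 ± 19.6 in KO and 325 ± 18.0 in WT (SD, n = 2 each), a difference of -50.35 units against gaps of 27.7 between the KO arrays and 25.4 between the WT arrays. The log2 fold change of -0.23 (SE 0.12, 95% interval -0.48 to 0.01) did not pass (unadjusted p = 0.064, limma adjusted p = 0.61). The interval reaches a KO level of 0.72 times that of WT at one end and 1.01 times at the other.

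Ccr1, a receptor for Ccl3, Ccl5 and related CC chemokines, read 632 and 714 in KO, against 703 and 593 in WT. The genotypes overlapped, with 1 KO array the highest and 1 WT array the lowest of the 4. The means were 673 ± 58.3 in KO and 648 ± 77.3 in WT, and their difference of 24.95 units was smaller than the gap within either pair (82.4 in KO, 109 in WT). The log2 fold change was 0.06 (95% interval -0.24 to 0.35, limma adjusted p = 0.9997). A KO level of 0.85 to 1.27 times that of WT lies within the interval.

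Cx3cr1, the fractalkine receptor of monocytes and resident macrophages, read 197 on both KO arrays, against 192 and 184 in WT. The KO arrays were above the WT arrays, with means 8.9 units apart, and all 4 exceeded the highest control. The log2 fold change was 0.06 (SE 0.11, 95% interval -0.16 to 0.28, limma adjusted p = 0.9997), which is 0.90 to 1.22 times the WT level. The pair of KO arrays differed by 0.3 units, and such a narrow gap between 2 arrays is no measure of the usual spread, which the fit takes from all probe sets of like signal.

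Ccr2, Ccr7 and Cxcr2 could not be told from background. Ccr2, the receptor for Ccl2 on inflammatory monocytes, read 58.9 and 48.6 in KO, against 59.1 and 56.5 in WT, with overlapping genotypes. Ccr7, which guides dendritic cells and lymphocytes to lymph nodes, read 80.3 and 82.4 in KO, against 87.7 and 71.6 in WT, where both KO values lay between the WT values. Cxcr2, the receptor for neutrophil-attracting CXC chemokines, read 44.4 and 36.1 in KO, against 31.8 and 41.7 in WT. All 12 signals stayed under the median control of the same array. No fold is therefore given, and the log2 differences of the fit without a signal filter describe signals at background level, not the transcripts. They were -0.09 for Ccr2 (95% interval -0.30 to 0.13, limma adjusted p = 0.98), 0.03 for Ccr7 (-0.18 to 0.24, adjusted p = 0.9994) and 0.10 for Cxcr2 (-0.11 to 0.30, adjusted p = 0.96).

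Markers of the cells that usually carry these 3 receptors were read beside them. Of 12 neutrophil markers, 11 had values and 6 passed the filter, of which 0 rose and 1 fell. By gene, 1.06% of 5002 were called higher in KO and 2.66% lower. After quantile normalization, 1 of the 6 was higher and 1 lower past the threshold. The counts were also 1 and 1 at an unadjusted p under 0.05 by limma, beside 150 higher and 323 lower of the 5002. The one that fell was S100a8, a calcium-binding protein of neutrophils and monocytes, at 331 and 370 in KO, against 517 and 542 in WT (log2 fold change -0.58, limma adjusted p = 0.0015). S100a8 did not pass without WT replicate 1 (log2 fold change -0.61) or WT replicate 2 (-0.54). The summed neutrophil signal was 1885 and 1826 in KO, against 1967 and 2050.5 in WT. This sum includes S100a8, whose KO mean alone differed from its WT mean by -179 units. By their means, 2 of the 6 were higher in KO and 4 lower. Their median log2 fold change was -0.04, against -0.02 over all 5002 tested genes. Of 11 dendritic cell markers, 9 had values and 7 passed the filter, of which 0 passed limma's test, or had an unadjusted p under 0.05 (median log2 fold change -0.08). Of the 9, 6 exceeded the highest control on all 4 arrays (Itgax, Fscn1, Cd83, Ccl22, Batf3 and Flt3), and 1, Zbtb46, a factor that sets conventional dendritic cells apart, lay below the control median on all 4. The monocyte markers Plac8 and Fn1 were the 2 of 6 with values, and neither passed.

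The other chemokine receptor genes did not pass either. Of 17 listed, 14 had values, 7 passed the filter, and 0 of these 7 rose or fell in limma's test, or at an unadjusted p under 0.05 (median log2 fold change -0.04); Ccr10, Cxcr1 and Cxcr6 were not analysed here. Ccr6, a receptor for Ccl20, read 203 and 165 in KO, against 197 and 181 in WT, and was the 1 gene of the 14 above the highest control on all 4 arrays. Ccr1l1, a close relative of Ccr1, read 166 and 141 in KO, against 183 and 157 in WT (log2 fold change -0.13, limma adjusted p = 0.97). Cmklr1, the signalling receptor for chemerin, read 57.7 and 58.7 in KO, against 62.9 and 64.5 in WT, below the control median throughout. Ccr9, also below the control median on all 4 arrays, read 40.4 and 34.5 in KO, against 47.9 and 50.1 in WT. In the fit without a signal filter its log2 difference was -0.28 (limma unadjusted p = 0.0076, adjusted p = 0.15). Several of these genes are neighbours of the 7: in the GRCm38.p6 annotation Ccr1 lies on chromosome 9 between Xcr1 and Ccr1l1, Ccr2 next to Ccr3, and Cx3cr1 next to Ccr8. Ccrl2 lies on the same chromosome, Cxcr2 and Cxcr4 on chromosome 1, and Ccr7 on chromosome 11.

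**Figure D3:**
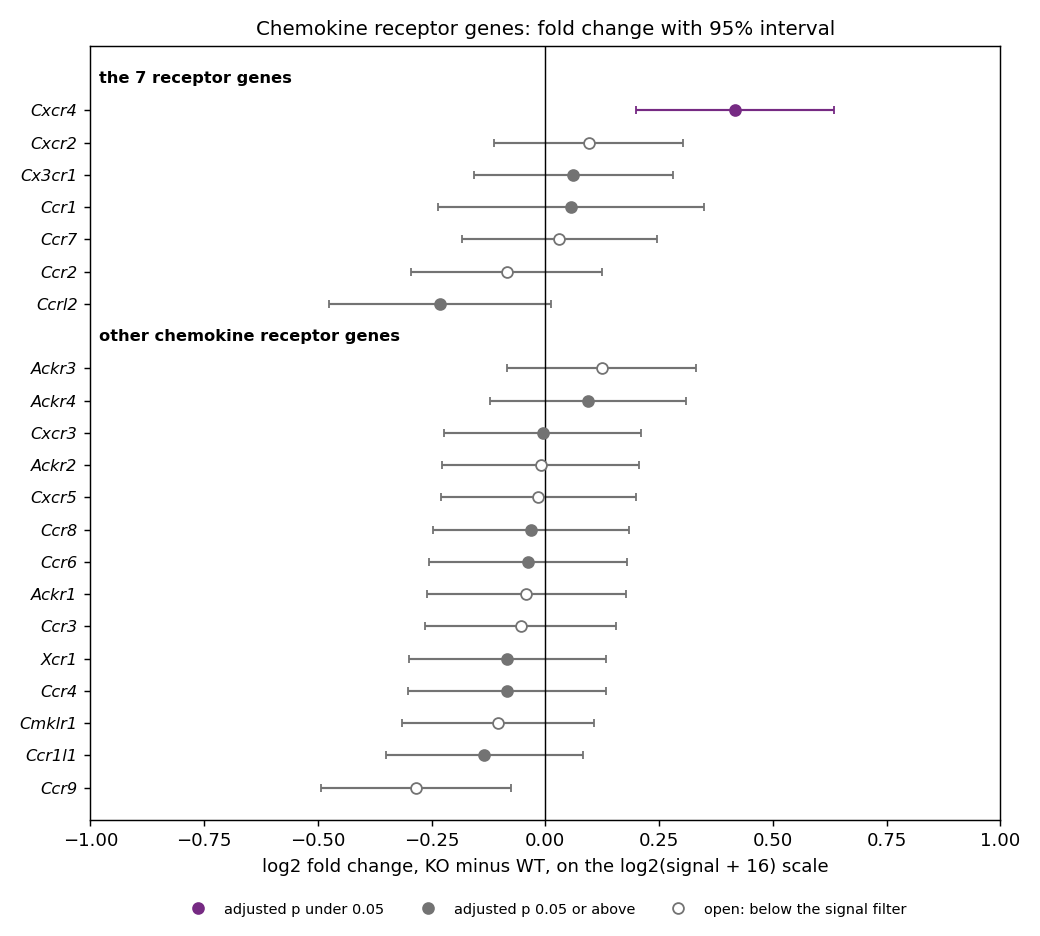
Log2 fold change (KO minus WT, log2(signal + 16) scale) with 95% interval for the 7 chemokine receptor genes and 14 other receptor genes; open circles mark probe sets below the signal filter and purple an adjusted p under 0.05. Cxcr4 at 0.42 is the 1 gene past the threshold, and Ccrl2 at -0.23 the lowest of the 7.

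Ligands of these receptors moved in part. Of 20 listed, 15 had values and 13 passed the filter, of which 2 rose, 1 fell and 10 did not pass (median log2 fold change -0.07); by gene, 1.06% of 5002 were called higher in KO and 2.66% lower. Both ligands that rose act on Cxcr2. Cxcl5 read 153 and 198 in KO, against 119.5 and 113 in WT (log2 fold change 0.53, SE 0.11, limma adjusted p = 0.00011). Both WT values of Cxcl5 lay within the range of the controls, and both KO values above the highest control. Cxcl1 read 206 and 231 in KO, against 163.5 and 167 in WT (log2 fold change 0.37, SE 0.11, limma adjusted p = 0.029). Cxcl2, another ligand of Cxcr2, read 68.0 and 85.4 in KO, against 114 and 88.1 in WT, below the signal filter (log2 fold change -0.33, adjusted p = 0.069 without a filter). Cxcl5 missed the threshold without KO replicate 2 (log2 fold change 0.36) or WT replicate 2 (0.49). Cxcl1 missed it without KO replicate 2 (log2 fold change 0.29), WT replicate 1 (0.36) or WT replicate 2 (0.38). Cxcl1 also missed it without a filter (limma adjusted p = 0.059), and a dimmer Cxcl1 probe set gave a log2 fold change of 0.26 with adjusted p = 0.28.

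The ligand that fell was Ccl5, also called RANTES, which acts on Ccr1. It read 1192.5 and 1391 in KO, against 1891 and 2064 in WT, 1.53-fold lower in KO (log2 fold change -0.61, SE 0.16, limma adjusted p = 0.0052). With WT replicate 1 left out the value was -0.67 (adjusted p = 0.93), and it was -0.55 (0.9999) when WT replicate 2 was left out. Other Ccr1 ligands did not pass: Ccl3 read 657 and 724 in KO, against 667 and 560 in WT, and Ccl6 read 1553 and 2047 in KO, against 1506.5 and 1614 in WT. Ccl2, the main ligand of Ccr2, read 1344 and 1399 in KO, against 1520.5 and 1429 in WT (log2 fold change -0.10, adjusted p = 0.9997). Its receptor was among the 3 that could not be told from background.

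The ligand genes measured for Cxcr4, Ccrl2 and Cx3cr1 did not pass, and no Ccr7 ligand was analysed here. Cxcl12, the ligand of Cxcr4, read 128 and 108 in KO, against 125 and 104 in WT, below the highest control on all 4 arrays (log2 fold change 0.04). Rarres2, which encodes the chemerin that Ccrl2 binds, read 164 and 201 in KO, against 142 and 148 in WT (log2 fold change 0.30, SE 0.11, limma adjusted p = 0.13). Cx3cl1, fractalkine, read 162 and 134 in KO, against 168 and 164 in WT (log2 fold change -0.15, adjusted p = 0.90).

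**Figure D4:**
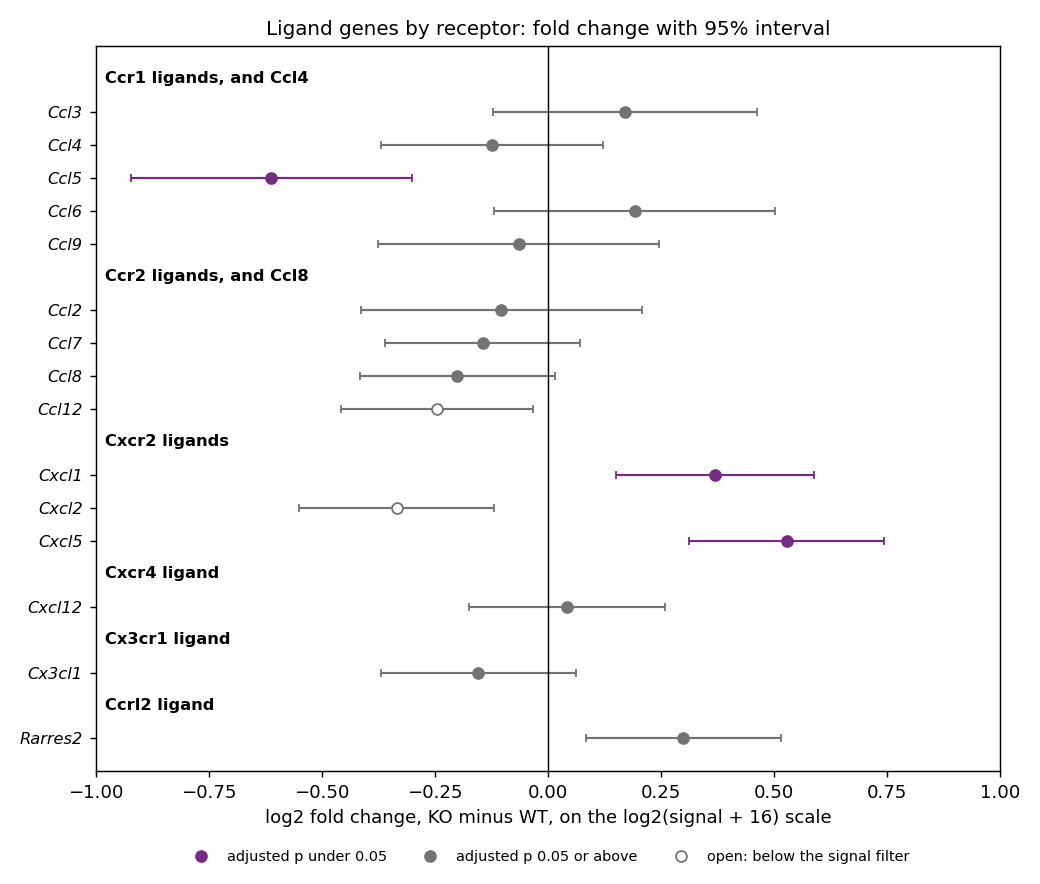
Log2 fold change (KO minus WT, log2(signal + 16) scale) with 95% interval for 15 ligand genes grouped by receptor; open circles mark probe sets below the signal filter and purple an adjusted p under 0.05. Cxcl1 and Cxcl5 lie above 0 and Ccl5 below it, and the other 12 did not pass.

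Among genes that carry or end the receptor signal, 1 rose in KO. Of 33 listed, 23 had values and 20 passed the filter, of which 1 rose, 0 fell and 19 did not pass. Their median log2 fold change was -0.01. By gene, 1.06% of 5002 were called higher in KO and 2.66% lower. At an unadjusted p under 0.05 by limma, 1 of the 20 was higher and 2 lower, beside 150 higher and 323 lower of the 5002. After quantile normalization 2 of the 20 were higher and 2 lower past the threshold. The one that rose was Rgs2, at 188 and 203 in KO, against 162 and 126 in WT (log2 fold change 0.41, SE 0.11, limma adjusted p = 0.0075), which missed the threshold without WT replicate 2 (0.9999) or KO replicate 2 (0.058). Gnai2, the inhibitory G protein subunit that most chemokine receptors use, read 4847 and 5584 in KO, against 5272 and 5334 in WT (log2 fold change -0.03). Arrb1, an arrestin, read 242 and 227 in KO, against 228 and 210 in WT, and Grk6, a receptor kinase, read 299 and 313 in KO, against 342 and 318.5 in WT, and neither passed. Vav1, an exchange factor for Rac, read 636 and 834 in KO, against 889 and 1040.5 in WT, and did not pass (log2 fold change -0.39, adjusted p = 0.19). Gnb4, a G protein beta subunit gene, read 65.4 and 54.1 in KO, against 93.2 and 95.3 in WT, below the control median on all 4 arrays. It passed in the fit without a signal filter (log2 fold change -0.55, adjusted p = 5.8e-05).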

How the data were processed

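RNA of 2 KO and 2 WT samples was measured on 1 array each, grouped by the sample titles. The authors deposited a linear intensity for each probe set and array; their probe summary, background correction and scaling are not given in the sources used here. The table has 12488 rows. Blank rows (1780) and control rows (59) were set aside, which left 10649 probe sets, 9389 of them with 1 gene in the platform annotation. Symbols were matched by gene identifier to the GRCm38.p6 gene table (9377 of 9389).

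Values were used as deposited, since array medians differed by less than 0.1 on the log2(signal + 16) scale. The medians do not show shifts at high signal. In the brightest decile, KO replicate 2 lay above KO replicate 1 by a median of 0.21 on that scale. WT replicate 2 lay above WT replicate 1 by 0.07. The filter kept the 6389 probe sets whose mean log2 value exceeded the 40th percentile, near a signal of 111. The test of KO against WT used limma 3.58.1 with R 4.3.3 (lmFit, eBayes with intensity trend, two-sided, Benjamini-Hochberg adjusted p under 0.05). Members below the filter were taken from the same fit without it. The prior degrees of freedom were infinite, so spread and intervals come from the trend over all probe sets, and genes that vary more than is usual at their signal are called too easily. On simulated data for 2 arrays against 2, with 200 of 6389 probe sets changed, the code recovered 100% of log2 changes of 1 and 92% of 0.5, with 3 false calls among 195. The simulated noise was independent between arrays and had the same spread for all probe sets of like signal, as the fit assumes. The simulation therefore checks the code only and does not measure how often calls in the real data are false.

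The members and the lists were chosen with earlier results of these data known. All members, Pparg, list genes that passed (up to 6 a list), ligands of the receptors, and the 3 profiles most like a called member are named by rule; other list genes were chosen after their values were seen. In the list counts of calls and the medians, each gene stands for its brightest probe set past the filter. Summed signals and comparisons with the controls also took in genes whose brightest probe set lay below the filter. Alternatives were quantile normalization or median centring, a filter at the 60th percentile or none, a pseudocount of 1 or 64, eBayes robust, without trend or replaced by no moderation, each array left out, a block for the replicate number, a threshold of 0.1, a 1.5-fold rule on top, and means over a gene's probe sets. Plots used matplotlib 3.10.9 (Python 3.11.15).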

Additional observations from a re-analysis of the deposited data

How the results depend on the processing

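Over all tested probe sets, 227 were called (65 higher and 162 lower in KO). Quantile normalization called 419 (170 higher, 249 lower), the replicate number as a block called 480, an added 1.5-fold rule 90 and the fit without moderation 0, while leaving out 1 array gave between 54 and 327 calls. Among the 7 receptor probe sets, 1 was called; this was 0 without moderation and 0 with the 1.5-fold rule, and between 0 and 1 when an array was left out. Cxcr4 kept its direction in 14 of 14 alternatives and its call in 11, with log2 fold changes from 0.24 to 0.59; in the fit with the replicate block its adjusted p was 0.00014. The block changed no other call among the 7. Same-numbered arrays deviated together (correlation 0.42 over tested probe sets), but with 2 pairs and no label for the pairing this is a hint from the data only.

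Directions of 4 uncalled receptors turned when an array was left out, with log2 fold changes from -0.063 to 0.17 for Ccr1, -0.19 to 0.022 for Ccr2, -0.091 to 0.15 for Ccr7 and -0.041 to 0.23 for Cxcr2; the cause was not tested. When an array is left out, the lone array of that genotype is taken to vary as the other genotype does. The number of arrays limits precision, and signals below the controls carry no usable level.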
